A study of Mus musculus with 2 samples.

Results

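Claudins, cadherins, connexins and other cell junction genes were compared in injured mouse kidneys with and without estrogen sulfotransferase (EST, the Sult1e1 product, which sulfates and so inactivates estrogens). The members were taken by gene symbol alone: claudins, numbered cadherins other than the endothelial Cdh5, zonula occludens genes (Tjp), alpha, beta and gamma connexins (Gja, Gjb, Gjc), and Ocln, F11r, Cgn, Ctnna1, Ctnnb1, Ctnnd1 and Epcam. They came to 112 probe sets for 64 genes, among 18194 genes named on the array. The group WT AKI (acute kidney injury) was 180 mg of kidney pooled from 3 male C57BL/6 mice, and the group EST KO AKI was 124 mg pooled from 6 male mice of the same strain label with the EST KO genotype. All were 8 weeks old, had both kidneys made ischemic for 30 min while warm, and were killed after 24 h. Each pool was read on 1 Affymetrix array, which leaves the variation among animals unmeasured and allows no test between genotypes. Uninjured kidneys were not analysed here, and how the EST allele was disrupted is not given in the sources used here. One label field calls the tissue of the EST KO pool liver, whereas its other fields say kidney.

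Epithelial cells of the nephron are held together by 3 kinds of contact covered by these genes. Tight junctions seal the space between cells, and the claudins in them set which ions pass: Cldn2 and Cldn10 form the paracellular pores of leaky segments such as the proximal tubule and the loop of Henle, while Cldn3, Cldn4, Cldn7 and Cldn8 belong to the tighter distal nephron and collecting duct. Adherens junctions are built from cadherins, whose tails bind catenins that reach the actin cytoskeleton; beta-catenin also acts in the nucleus in Wnt signalling. Gap junctions are channels of connexins that let small molecules pass between neighbouring cells.

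Of the 64 genes, 21 lay above background in at least 1 pool, 17 of them in both. Background was the level under which 95% of 129 probe sets for chemoreceptor families (odour, pheromone, taste) and hair keratin-associated proteins lay, 676.1 on the WT array and 638.3 on the EST KO array. Values are linear intensities, given as WT and then EST KO, each from the gene's brightest probe set. A value below background was raised to it before a fold was taken, so such a fold is a bound and is written as "at least". Of the 21 measured genes, the EST KO pool had 15 at a lower and 6 at a higher level. Of all 7346 measured genes for which an order could be given, 4084 were lower and 3262 higher. The median log2 ratio of the 21, taken as EST KO minus WT, was -0.32, against -0.06 over the 7346. A difference of at least 1.5-fold was reached by 3 members in the lower direction, Epcam, Cldn3 and Cldn7, where 7.43% of all 7480 measured genes did so, and by 1 in the higher direction, Gjb2, where 8.46% of measured genes did so. At 2-fold there was 1 lower member, Epcam (1.4% of measured genes), and 1 higher, Gjb2 (3.02% of measured genes). With so few members past either fold, these shares were not compared further.

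Error could be measured only as disagreement among probe sets for 1 gene. Over 1663 genes with at least a pair of such probe sets, both above background on each array, the log2 ratios of the brightest pair differed by 0.39 (SD), and 95% of the differences were within 0.81. In 29.3% of those genes the pair pointed in opposite directions. Among members above background in both pools, all but Epcam, Cldn3 and Gjb2 had log2 ratios no larger than those differences. These members ran from -0.81 for Cldn7 to 0.54 for Cldn10. Sult1e1 read 472.7 and 17.2, below background in both pools, so it does not check the genotype.

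**Figure D1:**
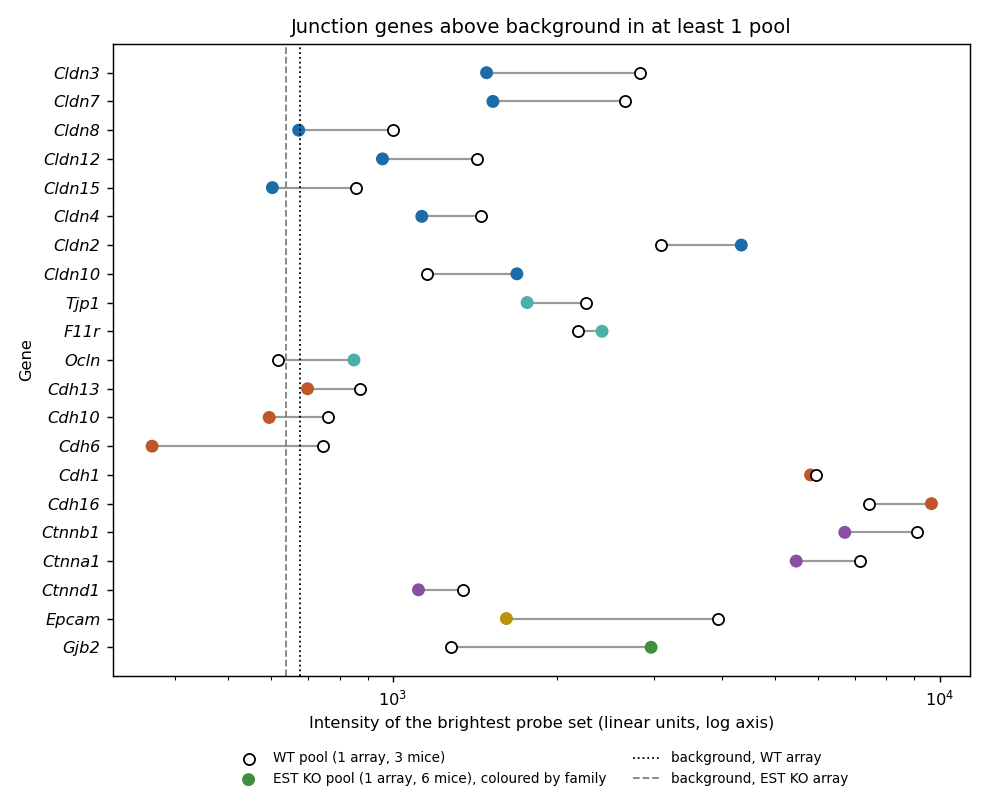
Intensity of the brightest probe set (horizontal axis, linear units on a log scale) of the 21 junction genes above background in at least 1 pool, with the WT pool as open circles and the EST KO pool as filled circles coloured by family; vertical lines mark background on each array. Levels can be compared along a row, not between rows, since probe sets differ in brightness; the widest gaps among genes above background in both pools are those of Epcam, 3942 and 1615, and Gjb2, 1280 and 2969.

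The sequences below are the 250 bases before the transcription start of 7 selected members, from RefSeq on the build GRCm38.p6. Of the 21 measured members 16 had an entry, and those without were Cdh1, Cdh13, Cdh16, Cldn8 and Ctnna1. Cldn7 and Cldn10 each had a pair of starts. The sequences are shown as a set that was lower and a set that was higher in the EST KO pool. Capitals mark matches on either strand to 4 motifs: the E-box CACCTG bound by the repressors Snail and Zeb (its reverse complement is CAGGTG), the GC box GGGCGG (reverse complement CCGCCC), the TATA box TATAAA and the grainyhead-like site AACCNGTT. No matches overlapped those of another motif. The lower set is Cldn3, its chromosomal neighbour Cldn4, Cldn7 and Epcam. It is a selection: Cldn12 (1.49-fold) and Ctnnb1 (1.35-fold) were also lower and had an entry, but are not printed.
Cldn3, chr5:134985964-134986213, plus strand: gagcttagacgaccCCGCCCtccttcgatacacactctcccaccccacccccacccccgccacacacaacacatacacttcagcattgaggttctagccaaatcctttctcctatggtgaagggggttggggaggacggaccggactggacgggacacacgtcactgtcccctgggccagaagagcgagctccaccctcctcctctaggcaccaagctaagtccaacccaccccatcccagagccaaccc
Cldn4, chr5:134946935-134947184, minus strand: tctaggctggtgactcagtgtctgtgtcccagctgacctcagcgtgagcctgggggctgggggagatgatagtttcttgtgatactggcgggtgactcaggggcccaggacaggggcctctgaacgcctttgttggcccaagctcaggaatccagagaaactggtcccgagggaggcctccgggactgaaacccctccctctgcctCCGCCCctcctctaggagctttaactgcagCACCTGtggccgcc
Cldn7 first start, chr11:69964529-69964778, plus strand: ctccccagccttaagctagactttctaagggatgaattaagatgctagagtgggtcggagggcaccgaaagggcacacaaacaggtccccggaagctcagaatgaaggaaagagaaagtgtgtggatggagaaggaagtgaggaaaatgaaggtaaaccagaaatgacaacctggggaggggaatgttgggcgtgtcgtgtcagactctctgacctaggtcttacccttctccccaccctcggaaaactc
Cldn7 second start, chr11:69965171-69965420, plus strand: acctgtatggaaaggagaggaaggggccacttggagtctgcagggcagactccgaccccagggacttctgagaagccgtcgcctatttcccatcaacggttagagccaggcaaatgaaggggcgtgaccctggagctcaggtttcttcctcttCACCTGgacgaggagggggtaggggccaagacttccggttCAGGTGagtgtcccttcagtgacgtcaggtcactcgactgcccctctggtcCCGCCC
Epcam, chr17:87635729-87635978, plus strand: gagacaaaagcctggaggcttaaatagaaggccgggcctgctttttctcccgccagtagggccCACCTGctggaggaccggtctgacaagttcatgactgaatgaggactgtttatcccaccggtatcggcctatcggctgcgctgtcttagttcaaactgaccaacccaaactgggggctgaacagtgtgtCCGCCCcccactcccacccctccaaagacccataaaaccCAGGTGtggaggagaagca

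The higher set is the claudins Cldn2 and Cldn10 and the connexin Gjb2.
Cldn2, chrX:139800558-139800807, plus strand: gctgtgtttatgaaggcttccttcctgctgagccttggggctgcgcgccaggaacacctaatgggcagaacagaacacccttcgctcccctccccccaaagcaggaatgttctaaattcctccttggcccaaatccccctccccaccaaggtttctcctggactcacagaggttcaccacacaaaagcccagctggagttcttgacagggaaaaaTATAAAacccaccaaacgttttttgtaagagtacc
Cldn10 first start, chr14:118787621-118787870, plus strand: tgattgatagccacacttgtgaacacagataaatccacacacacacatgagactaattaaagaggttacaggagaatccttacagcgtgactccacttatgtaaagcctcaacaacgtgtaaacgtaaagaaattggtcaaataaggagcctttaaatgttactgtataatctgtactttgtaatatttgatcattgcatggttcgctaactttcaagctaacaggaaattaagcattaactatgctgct
Cldn10 second start, chr14:118854700-118854949, plus strand: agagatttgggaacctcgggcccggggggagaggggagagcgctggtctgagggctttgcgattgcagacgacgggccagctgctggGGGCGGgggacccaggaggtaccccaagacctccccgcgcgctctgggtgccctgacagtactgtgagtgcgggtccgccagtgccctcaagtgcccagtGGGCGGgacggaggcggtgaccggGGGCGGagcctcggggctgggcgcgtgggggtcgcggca
Gjb2, chr14:57104703-57104952, minus strand: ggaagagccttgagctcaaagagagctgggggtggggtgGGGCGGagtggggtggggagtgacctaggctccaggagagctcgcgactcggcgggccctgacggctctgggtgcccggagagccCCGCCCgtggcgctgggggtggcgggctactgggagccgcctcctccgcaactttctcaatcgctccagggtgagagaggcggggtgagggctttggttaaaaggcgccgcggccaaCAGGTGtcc

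The Snail and Zeb E-box letters stood in the windows of Cldn4, Epcam and Gjb2 and in that of the second start of Cldn7, which held 2 matches, as did Epcam. Among all 32851 RefSeq promoter windows of the same length, 17.2% held these letters. Over all measured members with an entry, they stood in 3 of 16 windows of lower genes and in 3 of 7 windows of higher genes. The lower genes that held them are all printed above, whereas the higher genes F11r and Ocln, which also held them, are not. The GC box letters, found in 32.7% of all windows, stood in 11 of the 16 and 5 of the 7. The grainyhead-like letters (1.8% of all windows) stood in none. Of the sequences printed, Cldn2 alone held TATAAA, 30 to 35 bases before its start (12.4% of all windows). Over all measured members with an entry, TATAAA stood in 2 of 16 windows of lower genes and in 1 of 7 of higher genes. A match describes letters and shows no binding.

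Cldn2 and Cldn10 were higher in the EST KO pool, and the other 6 measured claudins were lower. Those 6 include the 4 of the distal nephron and collecting duct, and also Cldn15, itself a cation pore. Over the 8 the median log2 ratio was -0.50. Cldn2, Cldn3 and Cldn12 had more than 1 probe set above background, and the other 5 rest on 1 each.

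Cldn3, a sealing claudin of the distal nephron, read 2828 and 1486 and was 1.90-fold lower in the EST KO pool. Its second probe set, 992.0 and 535.0, gave a bound of 1.55-fold lower and its next, 694.9 and 395.1, a bound of 1.09-fold lower, since both EST KO values lay below background; the last was below background in both pools. With the mean of its probe sets the log2 ratio of Cldn3 was -0.56, also a bound because the floored values enter the mean. The 3 probe sets that give an order share a direction. Without the floor they were 1.90-, 1.85- and 1.76-fold lower, but only the brightest was above background in both pools. Cldn7, a claudin of the basolateral membrane and tight junction of the collecting duct, read 2666 and 1526 and was 1.75-fold lower. Cldn8, which pairs with Cldn4 in the chloride pathway of the collecting duct, read 1003 and 673.7 and was 1.49-fold lower, its EST KO value barely above background. Cldn4, the neighbour of Cldn3, read 1453 and 1131 and was 1.28-fold lower, a smaller gap than that of the neighbouring gene.

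Outside the distal set, Cldn12, a widely expressed claudin without the usual PDZ-binding tail, read 1427 and 958.5 and was 1.49-fold lower. Its second probe set, 683.3 and 618.4, gave a bound of only 1.07-fold. The size for Cldn12 therefore rests on its brightest probe set. Cldn15, a cation pore best known from the intestine, read 856.7 and 602.9, lower by at least 1.34-fold.

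Cldn2, the cation and water pore of the proximal tubule, read 3090 and 4342 a 1.40-fold higher level in the EST KO pool. Its second probe set, 1889 and 1930, was 1.02-fold higher, so the size rests on the brighter one. Cldn10, whose isoforms make a cation pore in the loop of Henle and an anion pore in the proximal tubule, read 1157 and 1688 and was 1.46-fold higher at its only probe set. Which of the Cldn10 isoforms that probe set reads is not given in the sources used here, so the gap cannot be assigned to either start printed above.

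The other 16 claudins lay below background in both pools: Cldn1, Cldn5, Cldn6, Cldn9, Cldn11, Cldn13, Cldn14, Cldn16, Cldn18, Cldn19, Cldn22, Cldn23, Cldn34b2, Cldn34c1, Cldn34c4 and Cldn34d. They ranged from 29.8 to 671.9 in the WT pool and from 22.0 to 576.1 in the EST KO pool. They include Cldn16 (404.7 and 248.4) and Cldn19 (89.9 and 81.8), the magnesium and calcium pathway of the thick ascending limb. For these genes the array gives no order, and a reading below background does not show absence. The same holds for Cldn5, the claudin of endothelium, at 653.6 and 514.9, and for Cldn1 of the glomerular parietal layer, at 488.9 and 506.8.

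Marker genes of the nephron segments and of tubular injury also differed between the pools. All 12 proximal tubule markers were higher in the EST KO pool, 11 by 1.5-fold or more; their median log2 ratio was 1.47 and their summed intensity was 45000 and 111262. Their log2 ratios ran from a bound of 0.18 for Slc5a12 to 2.95 for Pdzk1, beside 0.49 for Cldn2 and 0.54 for Cldn10. Of 8 collecting duct markers, 6 were measured, 2 higher, 3 lower and 1 without an order. Their summed intensity was 11666 and 8900, most of the gap from Aqp2, the vasopressin-regulated water channel, at 6236 and 3964. Aqp4 was lower by at least 1.57-fold and Scnn1b by at least 1.16-fold. Hsd11b2 was 1.22-fold and Aqp3 1.03-fold higher, and Scnn1g had no order. Another Aqp3 probe set pointed the opposite way. All 6 distal tubule markers were measured, 5 higher and 1 lower, with a median log2 ratio of 0.35. Their summed intensity was 12909 and 24610, most of the gap from Egf, epidermal growth factor, at 2341 and 11697. This sum therefore says little about the other distal tubule markers. The 4 claudins of the distal nephron and collecting duct were lower. Of 4 loop of Henle markers 3 were measured, with a summed intensity of 29471 and 30078: the salt transporter Slc12a1 was 2.29-fold higher, the channel Kcnj1 lower by at least 1.11-fold and Umod, uromodulin, 1.12-fold lower. Another Umod probe set pointed the opposite way. Of 6 tubular injury markers 5 were measured and 4 were at least 1.5-fold lower, with a median log2 ratio of -0.94 and a summed intensity of 66502 and 31575; Havcr1, the injury marker KIM-1, read 13344 and 6952. In tissue pools, fewer cells of a type and less RNA per cell cannot be told apart, and the part of segment makeup or of injury in the junction gene values was not tested.

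**Figure D2:**
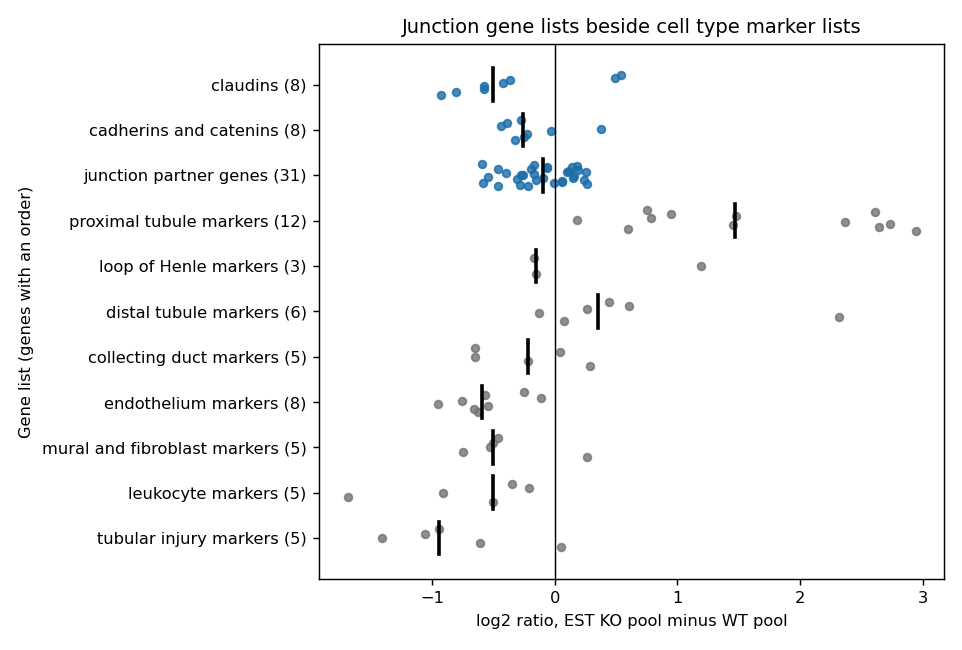
Log2 ratios (horizontal axis, EST KO pool minus WT pool) of measured genes with an order, by list, with their number in parentheses; each point is 1 gene at its brightest probe set, a value below background set to background, and the black bar is the list median. The claudins fall on both sides of 0 with a median of -0.50, the partner genes centre near 0 at -0.09, and all 12 proximal tubule markers lie above 0.

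Among the scaffold and the other membrane proteins of the tight junction, those above background in both pools showed small differences. Tjp1, the scaffold ZO-1 that ties claudins to actin, read 2262 and 1762 and was 1.28-fold lower. F11r, the adhesion molecule JAM-A, read 2187 and 2416 and was 1.10-fold higher. Ocln, the tetraspan protein occludin, read 616.5 and 850.0, higher by at least 1.26-fold. Its second probe set, below background in both pools, read 387.4 and 455.8. Tjp1 was thus lower and F11r higher, each by less than 1.5-fold and by less than probe sets of a gene often differ. For Ocln, also higher, only a bound of the size can be given. Tjp3, the scaffold ZO-3, and Cgn, the adaptor cingulin, lay below background in both pools, at 121.3 and 19.5 and at 206.9 and 279.4.

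Among cadherins, the epithelial Cdh1 differed little and the kidney-specific Cdh16 was higher in the EST KO pool. Cdh1, the E-cadherin of the adherens junction, read 5945 and 5811, a 1.02-fold gap whose sign turned when ratios were centred on the median gene (log2 0.01). Cdh16, the Ksp-cadherin found along the nephron and little expressed outside the kidney, read 7422 and 9668 and was 1.30-fold higher. Both are read by 1 probe set, far above background in both pools. Of 7 hepatocyte markers, 4 lay below background in both pools, among them albumin (Alb), at 487.9 and 522.3. The other 3 were higher in the EST KO pool: Ttr, transthyretin, at 1716 and 11957 (6.97-fold), Cps1 (1.11-fold) and Cyp3a11 (at least 1.02-fold). The summed intensity of the 7 was 3742 and 14442, most of it Ttr, and the part of other tissue in the pools was not tested.

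The other measured cadherins were dim and lower. Cdh13, the T-cadherin that is anchored by a lipid and lacks a catenin-binding tail, read 872.9 and 699.1 and was 1.25-fold lower. All 8 measured endothelial markers of 10 were lower too, with a median log2 ratio of -0.59 and summed intensities of 11595 and 7873. So were 4 of 5 measured mural and fibroblast markers (median -0.50) and all 5 measured leukocyte markers (median -0.51). The part of these cell types in the Cdh13 value was not tested. Cdh10, a cadherin mainly of the nervous system, read 760.6 and 594.9, lower by at least 1.19-fold, with its other 3 probe sets below background. Cdh6, the K-cadherin of the proximal tubule and its precursors, read 745.1 and 363.4, lower by at least 1.17-fold, because its EST KO value is replaced by background. Its second probe set, below background in both pools, read 379.8 and 182.8. With background at the 75th percentile of the silent families in place of the 95th, Cdh6 was 2.05-fold lower (log2 -1.04). Its EST KO value of 363.4 then lay little above the EST KO background of 325.8. The direction of Cdh6 was opposite to that of the proximal tubule markers named above.

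The remaining 15 cadherins lay below background in both pools, from 9.2 to 395.6 in the WT pool and from 15.3 to 467.9 in the EST KO pool: Cdh2, Cdh3, Cdh4, Cdh7, Cdh8, Cdh9, Cdh11, Cdh15, Cdh17, Cdh18, Cdh19, Cdh20, Cdh22, Cdh23 and Cdh26. Among them is Cdh2, the N-cadherin of the proximal tubule, at 206.6 and 184.1. Cdh11, a mesenchymal cadherin, read 225.7 and 261.3. No order can be given to either.

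All 3 catenins were lower at their brightest probe sets. Ctnnb1, beta-catenin, read 9084 and 6712 and was 1.35-fold lower. Its second probe set read 4119 and 2215 and was 1.86-fold lower, and its dimmest read 900.6 and 473.9, at least 1.41-fold lower. For this gene the dimmer probe sets gave a larger gap than the brightest one. Ctnna1, the alpha-catenin that links beta-catenin to actin, read 7170 and 5470 and was 1.31-fold lower, with a second probe set at 4573 and 3894. Its remaining pair of probe sets lay below background in both pools. Ctnnd1, the p120 catenin that keeps cadherins at the membrane, had probe sets in disagreement: 1346 and 1115 at the brightest, 1.21-fold lower, and 810.2 and 995.5 at the next, 1.23-fold higher. Its direction is therefore unsettled, while beta-catenin and alpha-catenin kept theirs at every probe set above background.

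Epcam had the widest gap in the lower direction and also the widest disagreement between probe sets. EpCAM is an adhesion protein of the basolateral membrane that binds claudin-7 and steadies it there. Its brightest probe set read 3942 and 1615 and was 2.44-fold lower in the EST KO pool. The other read 1881 and 1815 and was 1.04-fold lower. Their log2 ratios, -1.29 and -0.05, differ by more than those of 95% of genes with such a pair, and the mean over both was -0.67. The name of the brighter one carries the suffix for probe sets that read several transcripts of a gene, and that of the other the suffix for probe sets that may also read unrelated sequences.

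**Figure D3:**
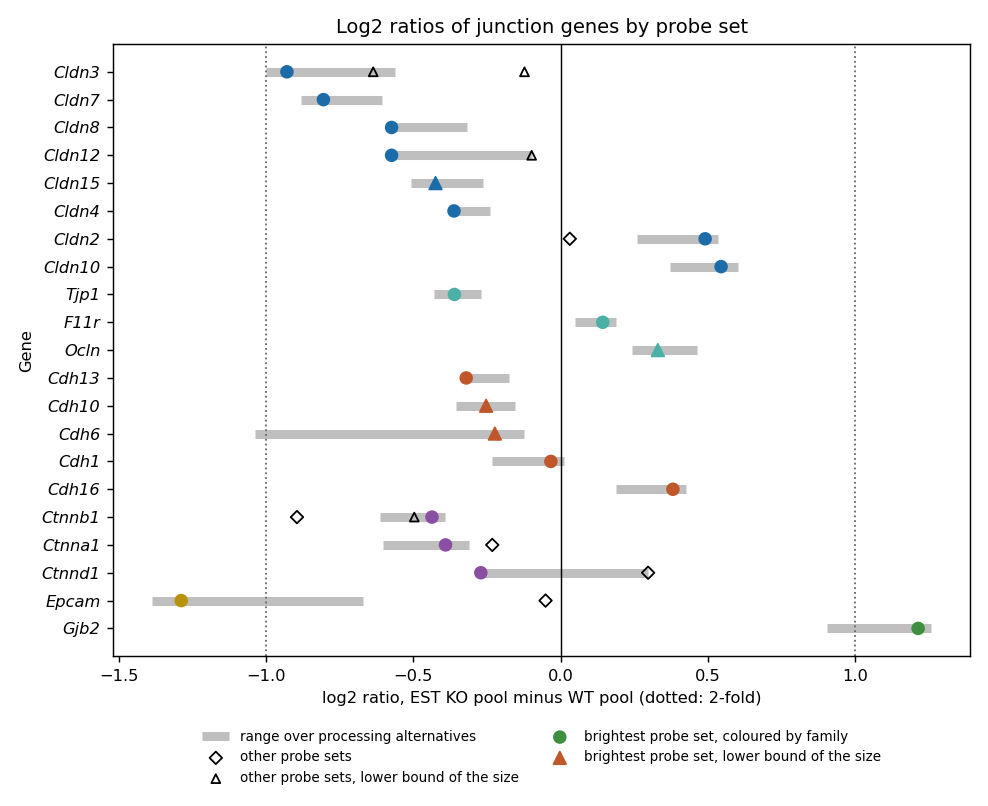
Log2 ratios (horizontal axis, EST KO pool minus WT pool) of the 21 measured junction genes: filled circles are the brightest probe set, open diamonds the gene's other probe sets above background, triangles (filled or open) probe sets where 1 pool lay below background and the size is a bound, and grey bars the range over the processing alternatives that could be fitted. The other probe set of Epcam lies at -0.05 against -1.29 for the brightest, and that of Cldn2 at 0.03 against 0.49.

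Gap junction genes were read above background for 1 connexin of 11. Gjb2, which encodes connexin 26, read 1280 and 2969 2.32-fold more in the EST KO pool, at its only probe set. With a pseudocount equal to the mean background in place of the floor, its log2 ratio was 0.90, under 2-fold. Gja1, connexin 43, the most widely expressed connexin, lay below background at all 6 of its probe sets, the brightest at 294.5 and 611.4 and the next at 361.7 and 415.3. Gjb1, the connexin 32 that pairs with connexin 26 in many epithelia, read 443.1 and 279.8, below background in both. The others below background were Gja3, Gja4, Gja5, Gja10, Gjb5, Gjb6, Gjc1 and Gjc3. Together with Gja1 and Gjb1 they ranged from 9.4 to 470.0 in the WT pool and from 9.2 to 611.4 in the EST KO pool, so no change in a connexin partner can be read for Gjb2.

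**Figure D4:**
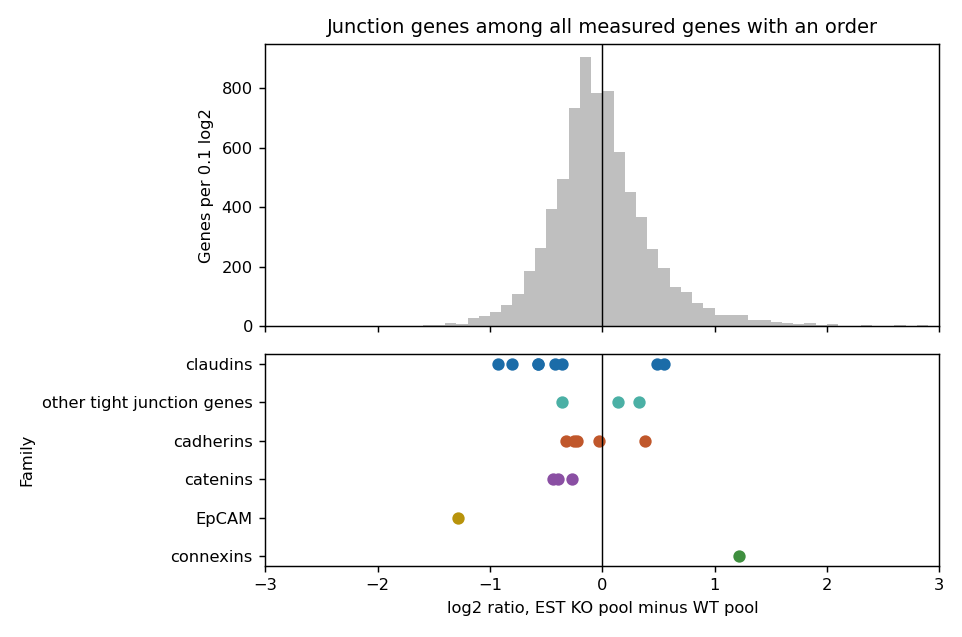
Upper panel: number of genes per 0.1 log2 among the 7346 measured genes with an order, by log2 ratio (EST KO pool minus WT pool; the horizontal axis is limited to 3 on either side). Lower panel: the 21 junction genes by family, showing Epcam and Gjb2 apart from the rest and most claudins left of 0, where their median is -0.50.

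The wider set of junction genes was read from a separate list. Of 49 such genes on the array (polarity complexes, nectins, plakophilins, desmosomal genes and tight junction adaptors), 32 were measured, 12 higher, 19 lower and 1 without an order. Over all measured genes 3262 were higher and 4084 lower. The median log2 ratio of the partner genes was -0.09 against -0.06 for all measured genes. At 1.5-fold, 2 of the 32 were lower and 0 higher, against 7.43% and 8.46% of all measured genes. Marveld3, a relative of occludin at the tight junction, read 962.5 and 531.8, lower by at least 1.51-fold. Dsp, the desmoplakin that ties desmosomes to keratin, read 1148 and 764.0, a log2 ratio of -0.59, with 1 other probe set in the same direction. Jup, plakoglobin, the relative of beta-catenin shared by adherens junctions and desmosomes, read 3598 and 3997, 1.11-fold higher. The scaffold and polarity genes Crb3 (2557 and 2772, 1.08-fold higher) and Pard3 (1031 and 1104, 1.07-fold higher) differed little. The other probe sets of Crb3 above background pointed in both directions.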

How the data were processed

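The values analysed were the authors' deposited intensity values on a linear scale, 1 per probe set and array, for 45101 probe sets on 2 arrays. Biotinylated cRNA was made from 8 ug of total RNA, per the labels' protocols; the software that summarised probes is not given in the sources used here. Each array had been scaled before deposit to a mean of 500.0 after the lowest and highest 2% of values were dropped, as the values show, and no further scaling was applied. Probe sets with 1 gene symbol in GEO's platform annotation (34958; 932 had several and 9211 none) were named, and symbols were updated by Entrez ID against a RefSeq table of GRCm38.p6, which matched 34754. Where a gene had several probe sets, the one with the largest mean intensity over the 2 arrays was used. Values under background were raised to it, and log2 ratios taken as EST KO minus WT; a gene above background in 1 pool only, at a level under the other pool's background, has no order. With 1 array a group there is no test. Every member above background in at least 1 pool is named, and of the partner genes those at least 1.5-fold apart; Jup, Crb3, Pard3 and the members named while below background were chosen after their values were seen. The members and lists were chosen with earlier results of these data known. Promoter windows came from RefSeq. Calculations used Python 3.11.15, pandas 2.3.3 and statsmodels 0.14.6, checked on simulated data. Alternatives were quantile normalization, centring, removal of the intensity trend, a lower background, no floor, a pseudocount of 657.2, the mean of probe sets, and leaving out probe sets whose suffix marks several transcripts.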

Additional observations from a re-analysis of the deposited data

How the results depend on the processing

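The direction of the members' median held under all 8 alternatives, at -0.16 without probe sets that match several transcripts or genes (16 members left), -0.21 with the intensity trend removed, and between -0.24 and -0.36 otherwise; the partner median stayed within 0.1 of its value. The scalings moved the median of all genes by less than 0.1. The counts past a fold are small and moved easily. Members at least 1.5-fold lower numbered 5 under quantile normalization, where Ctnnb1 and Ctnna1 were added. They numbered 1 without probe sets that match several transcripts or genes, where Epcam and Cldn3 had no probe set left. With the mean of probe sets the lower count stayed at 3, with Ctnnb1 (-0.61) in place of Cldn3 (-0.56). Both of these means are bounds, since floored EST KO values enter them. Members at least 1.5-fold higher numbered 2 after centring and with the trend removed, where Cldn10 was added (0.59 and 0.60). They also numbered 2 with the 75th percentile background, where the gene added was Gja1, at a bound of 0.81. Members at least 2-fold lower numbered 2 with the 75th percentile background and with no floor, where Cdh6 was added. They numbered 0 with the mean of probe sets. The count was also 0 without those that match several transcripts or genes, where Epcam was not read at all. Members at least 2-fold higher numbered 0 with a pseudocount. For single genes, 154 of 163 values under an alternative stayed within the SD between probe sets (0.28 for 1 probe set), 6 kept their sign and moved by more than that, and 3 changed sign: Cdh1 at 0.0124 after centring, and Ctnnd1 at 0.0132 with the mean of probe sets and 0.30 without those that match several transcripts or genes, since its probe sets oppose each other. Many of the 163 could not move, so the 154 is no measure of stability. Genes above background in both pools keep their value with a lower background or no floor. Genes with 1 measured probe set keep theirs with the mean of probe sets. No paired analysis was possible because each group has 1 array.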

Other observations

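With background at the 75th percentile of the silent families (348.1 and 325.8), 12 more members were measured, 5 higher and 7 lower in the EST KO pool. Gja1, connexin 43, was at least 1.76-fold higher at its brightest probe set, while its other 5 probe sets did not share a direction: 361.7 and 415.3, 246.1 and 170.4, 144.7 and 98.5, 92.4 and 139.0, and 43.3 and 23.6. Gja4, connexin 37 of the arterial endothelium, was 1.29-fold lower and Cldn5 1.27-fold lower. Cldn16 of the thick ascending limb was at least 1.24-fold lower, and Cldn1 differed by 1.04-fold.

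Genes that act on the junction genes were read as well, from lists written after the values were seen. Of 10 transcription factors on the array, 4 were measured. Hnf4a, which drives proximal tubule genes, read 2271 and 6578 2.90-fold more in the EST KO pool, with 3 other probe sets in the same direction. Grhl2, a grainyhead-like factor known to drive Cldn4 and Cdh1, read 1151 and 747.7 and was 1.54-fold lower, and Elf3, an epithelial ETS factor, read 2219 and 1611 and was 1.38-fold lower. Zeb2, the only repressor of Cdh1 on the list that was measured, read 863.8 and 812.1. Of 12 genes for turnover or targets of beta-catenin, 7 were measured, 4 higher and 3 lower. Ccnd1, cyclin D1, read 2237 and 4279 and was 1.91-fold higher, with 2 other probe sets in the same direction. Axin1, a scaffold of the complex that degrades beta-catenin, read 729.0 and 1187 and was 1.63-fold higher at 1 probe set. These were the largest gaps on that list. Csnk1a1 was 1.23-fold and Myc 1.02-fold higher, and Apc was 1.12-fold, Znrf3 1.07-fold and Gsk3b 1.003-fold lower. Apc and Gsk3b each had another probe set pointing the opposite way. Axin2, Btrc, Lef1, Nkd1 and Tcf7l2 lay below background in both pools. In the wider cadherin superfamily, 8 of 57 genes were measured. Cdhr5, a protocadherin that links brush border microvilli, read 3010 and 4641 and was 1.54-fold higher, and Fat1, an atypical cadherin, read 3234 and 2778 and was 1.16-fold lower.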
